A study of Drosophila melanogaster with 2 samples.

Results

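Of the 14532 oligonucleotide probes on the array, 247 had a fat body value of 5 or more and no salivary gland value, and these probes are described here. The members were chosen on those deposited values. These were a mean ratio (read here as log2) of fat body and brain-disc RNA at or above 5, and an empty entry for salivary gland and brain-disc RNA. Values were read as log2 from their size, since no label states the log base. On that reading, a value of 5 is a 32-fold difference. By the order of tissues in the titles, the members stand for transcripts far more abundant in fat body than in brain-disc tissue and without a reported salivary gland measurement. Their size and their missing entry are therefore what defined them, and both are given as a description without a test.

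RNA came from hand-dissected tissues of wild-type yw67c23 larvae of *Drosophila melanogaster*, taken in the third instar at 70 to 75 hours after egg laying. On one set of arrays fat body RNA, an endocycling tissue, was labelled with Cy3, and on the other set salivary gland RNA, also endocycling, was labelled with Cy3. Complexes of brain and imaginal discs, which contain mitotically cycling cells, were labelled with Cy5 on both sets. All groups shared strain, stage and dissection by hand, and no other allele or treatment is given in the labels. The fat body value is an average over 2 biological replicates and the salivary gland value over 3. Replicate values were not analysed here, so no member carries an error and no p-value was computed. Dye went with tissue on all arrays described, and the 2 cannot be told apart. In bulk tissue, a difference in the number of cells of a type and a difference in RNA per cell cannot be told apart either.

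The larval fat body is the insect counterpart of liver and adipose tissue. It stores fat and glycogen, secretes storage proteins, lipoproteins and immune effector peptides into the haemolymph, and grows by endoreplication, in which DNA is copied without division of the cell. The larval salivary gland also grows by endoreplication, and late in larval life it makes the glue proteins that fix the pupal case. Brain-disc complexes hold neural, glial and imaginal cells, and so form a mixed comparator.

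Which tissue stands on top of the deposited ratio is not stated in the labels. A positive value is read as likely higher in fat body, from the titles alone. None of the 247 probe IDs was found in the RefSeq gene table (0 of 14532 over the whole array), so the members have no gene names here, and markers of fat body, salivary gland, brain, discs, haemocytes, muscle and gut could not be looked up. The name strong fat body probe therefore rests on the values and the titles, and was not checked against known fat body genes. No probe sequence was used here.

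The members made up a large share of the strongest fat body signal. Of the 4893 probes with a fat body value, 383 (7.83%) were at or above 5, and 247 of those had no salivary gland value. Among the 502 probes that had a fat body value alone, the same threshold took 49.2%, and the members are that share by construction. The other 136 strong fat body probes also had a salivary gland value, and they are the probes most like the members.

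Member values ranged from 5.01 to 16.999, with a median of 6.33 (80.5-fold) and quartiles of 5.67 and 7.31. The 136 strong probes with a salivary gland value ranged from 5.01 to 13.2, with a median of 5.80 (55.7-fold) and quartiles of 5.35 and 6.38. Both sets start at the threshold, and the members reached further up. Between 5 and 6 lay 96 members (38.9%), against 81 of the 136 probes measured in both tissues (59.6%). Between 6 and 7 the counts were 76 members and 36 probes with a salivary gland value, and between 7 and 8 they were 37 and 12. At 8 to 9 there were 23 members against 3, and at 9 to 10 there were 8 against 2. The 2 sets overlap over most of their range, and no test was made because the fat body value is part of the rule.

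The far end of the fat body column consisted mostly of members, as did the strong values as a whole. Members were 247 of the 383 probes at 5 or more (64.5%) and 38 of the 45 at 8 or more (84.4%). The fat body value is part of the rule, so these shares are a description only. Of the 9 fat body values of 10 or more on the whole array, 7 belonged to members. Of those 7, 4 lay above 16, at 16.999 in 3 probes and at 16.823 in the fourth. DAC019I16 and DAC029A21 are 2 of the 3 probes at 16.999, and the third shares that value to all reported decimals although each probe has its own source plate. The next member stood at 11.9, so a gap of 4.92 on the log2 scale separated these 4 from the rest. Scanned intensities were assumed to be stored in 16 bits, which spans 16 on the log2 scale. A ratio of 2 such raw intensities cannot exceed that span. On that assumption, and read as log2, these 4 values are larger than a plain ratio of 2 scanned intensities can be. How they arose was not tested. Members were otherwise rarely tied, with 6 further values shared by 2 members each.

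At the other end, the threshold passed through a dense part of the distribution. The lowest members stood at 5.008, 5.026, 5.0415, 5.051 and 5.055. The closest probes just outside, also without a salivary gland value, stood at 4.9995, 4.996, 4.991, 4.988 and 4.9855. In the 0.25 log2 units above the threshold lay 18 members, and in the 0.25 log2 units below it lay 26 probes. The values run on across the limit without a gap.

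A missing salivary gland value was frequent at high fat body values and rare elsewhere. At or above 5, 247 of 383 fat body probes lacked one (64.5%, exact 95% interval 59.5 to 69.3%), against 255 of 4510 below 5 (5.65%, 5.00 to 6.37%). Within the members' range, the share was 54.2% of 177 probes at 5 to 6, 67.9% of 112 at 6 to 7, 75.5% of 49 at 7 to 8 and 84.4% of 45 at 8 or more. Just outside the rule, at 4 to 5, it was already 59.9% (118 of 197), whereas it was 31.6% at 3 to 4, 11.4% at 2 to 3 and 4.60% at 1 to 2. Between -4 and 1 it stayed between 1.08% and 2.26%. At -4 or less, 0 of 82 probes lacked a salivary gland value, which allows a share of up to 3.66% when the limit is set at 3 counts, and of up to 4.40% by the exact interval used for the other shares. The intervals cover counting error over probes only, and neighbouring ranges such as 4 to 5 and 5 to 6 overlap within them.

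Where a salivary gland value existed beside a strong fat body value, it was mostly positive too. In the 136 probes with both, the salivary gland ratio had a median of 4.09 log2 units and ranged from -2.42 to 10.3. It was at or above 1 in 122 of them (89.7%), at or above 5 in 33, and at or below 0 in 7. The fat body value exceeded the salivary gland value by 1 or more in 103 of the 136, with a median difference of 1.95 log2 units, and was the smaller one in 9. Both ratios have brain-disc RNA as the comparator, so a like sign in both columns is no independent result. For the members themselves the salivary gland side is empty, and the table gives no bound on how abundant their transcripts were in the gland.

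Fewer of the members' values than of other fat body values bore the mark of an average over 2 arrays. That mark is the last digit of the same fat body value on which the rule chose, so it is not independent of the choice. Single values were assumed to have 3 decimals, as no single array was analysed. An average of 2 arrays then ends in an added digit 5 in the fourth decimal for about 50% of probes. Among the members, 66 of 247 values (26.7%, exact 95% interval 21.3 to 32.7%) ended that way, and 47.2% of all 4893 fat body values did. On that assumption, doubling the count gives an estimate of 132 members (53.4%) that rest on 2 arrays, against 94.5% over all fat body values. The remaining members would rest on 1 array, although the labels give an average over 2 replicates. Among the 136 strong probes with a salivary gland value, 63 (46.3%, 37.7 to 55.1%) ended in the added digit, close to the whole column. The interval of the members lies below that of the strong probes with both values. Probes are not replicates, and no test was made across them.

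In each part of their range a lower share of members than of strong probes with a salivary gland value ended in the added digit. The intervals were separate only at 5 to 6. At 5 to 6 it was 26 of 96 members (27.1%, exact interval 18.5 to 37.1%), against 40 of 81 probes measured in both tissues (49.4%, 38.1 to 60.7%). At 6 to 8 it was 36 of 113 members (31.9%), against 21 of 48 (43.75%), and these intervals overlap. At 8 or more it was 4 of 38 members (10.5%, 2.94 to 24.8%), against 2 of 7 (28.6%, 3.67 to 71.0%). These intervals overlap too, and the share was also lowest there among probes with both values. Of the 7 members at 10 or more, 0 ended in the added digit, so none of the most extreme values was shown to be an average. The probes just outside the rule, without a salivary gland value and at 4 to 5, ended in it in 54 of 118 cases (45.8%, 36.6 to 55.2%), nearer to the whole column than to the members at 5 to 6.

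The 66 members whose last digit shows an average of 2 arrays can be set beside the other 181, of which some, by the estimate above, are averages of 2 as well. Values of the 66 ranged from 5.04 to 9.47 with a median of 6.33, and those of the 181 ranged from 5.01 to 16.999 with a median also at 6.33. The values above 10 lie wholly among the 181. Restricted to values shown to be averages, 66 of 129 strong fat body probes (51.2%) lacked a salivary gland value, a lower share than the 64.5% over all strong probes. The part that averaging has in the missing salivary gland values was not tested.

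The members were spread over the whole probe collection. The probe IDs name a source plate, 1 of 16 row letters and 1 of 24 column numbers, and 39 of the 41 plates held at least 1 member. In the 38 full plates, of 370 to 384 probes, the number of members ranged from 1 to 14 with a median of 6. The 3 smaller plates held 5 members, all on 1 of them. Set against the fat body values on the same plate, members made up from 0.88% to 11.9% in the 38 full plates, with a median of 4.88%, and 14.7% (5 of 34) on the small plate that held any. The 5 richest plates held 58 members (23.5%). In 29 of the 38 full plates, more than 50% of the strong fat body probes lacked a salivary gland value, and the richest plate held 5.67% of all members. Members side by side in a row formed 6 pairs of neighbouring wells, and no background number of such pairs was computed.

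Within plates, members were spread unevenly over column and row numbers. Counted with a restart at column 13, the 12 column positions held from 10 members (position 12) to 42 (position 2). Position 12 had 290 fat body values and position 2 had 525. Positions 1 to 4 held 117 members (47.4%). The same positions held 49 of the 136 strong probes with a salivary gland value (36.0%) and 40.1% of all fat body values. Most of the excess of members over fat body values there lay at position 2. Members made up 8% of the fat body values at position 2, against 5.05%, 5.16% and 5.54% at positions 1, 3 and 4. At positions 5 to 12 they made up from 2.99% to 5.90%. The share of strong fat body probes without a salivary gland value was above 50% at 11 of the 12 positions, with a highest value of 80.8% at position 2, and was 33.3% (10 of 30) at position 12. The median member value lay between 5.53 and 6.88 at all positions. By row letter, with a restart after every 4 letters, the row class of A, E, I and M held 95 members, 6.72% of its fat body values, and that of D, H, L and P held 39, or 3.72%. Members ending in the added digit were 34.7% in the first of these classes and 10.3% in the second. The 2 classes between stood at 27.8% and 23.7%. By column position this share varied from 11.1% (position 5) to 42.9% (position 1) without a steady trend. It was not computed over all fat body values of each class or position. Without that background, the share cannot be read as a trait of the members at a position, and several positions held few members. The number of members differed by position in the source plate, as the probe IDs give it. The part of position in the number of members or in their last digits was not tested.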

How the data were processed

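The authors deposited, for each probe, 1 mean log2 ratio per comparison, averaged over 2 fat body or 3 salivary gland replicates, per the labels. Slides were read with GenePix software, per the series' design text. No label or header states the log base, background correction, normalization, centring, direction or the filter behind empty entries. Values were read as log2 from their size, and the fold differences given here rest on that reading. The column medians were -0.18 (fat body) and -0.22 (salivary gland).

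Members were found on the values as deposited, with Python 3.11.15, pandas 2.3.3 and scipy 1.17.1. A value was taken as an average of 2 arrays where it lay within 5e-07 of a digit 5 in decimal place 4. The count was run on simulated single values made with 3 decimals. That run cannot show whether the single values of these arrays had 3 decimals. Intervals are exact binomial (Clopper-Pearson), and precision is limited by the number of arrays. No test was made, since each comparison is 1 averaged column. Without gene names, the rule allowed at most 2 members, with the highest values, to be named, and the lists of marker, storage, lipid, immune, detoxification, metabolic and growth genes could not be applied. The members and lists were chosen with earlier results of these data known. Alternatives were other thresholds, zero points and subsets of probes.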

Additional observations from a re-analysis of the deposited data

How the results depend on the processing

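Alternative settings were applied to the counts, the median and the share of the members, which gave 18 comparisons. Several settings were applied to more than a single result and are counted each time. Of the 18, 12 moved a count by at most 1.5 times or kept a median or share within its 95% interval, and 6 did not. At a threshold of 6, 151 probes were members, with a median of 6.99 and a missing share of 73.3%, and at a threshold of 4 the median was 5.69. These follow from the moved limit. With values ending in the added digit alone, 66 members and a share of 51.2% were left. That the count is lower follows from testing fewer probes, and the cause of the lower share was not tested. Settings that moved the zero point, shifted the column positions, or left out the richest plate or the values above 16 gave 233 to 289 members. The member count among values ending in the added digit, and the count and median without values above 16 (243 members, median 6.29), were added after seeing the data. No paired analysis was possible because the values analysed here are averages, and individual replicate values were not used here, so no replicate was left out. Signal over background is not known for any probe.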

Other observations

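The reverse pattern in the salivary gland column involved fewer probes. Of 8026 salivary gland values, 116 (1.45%) were at or above 5, and 74 of those (63.8%, exact 95% interval 54.4 to 72.5%) had no fat body value. Their median was 5.52, with a range of 5.00 to 17.2, and the next values below the highest were 11.1 and 8.88. Over all salivary gland values, 45.3% had no fat body value, so the missing share at the strong end stood nearer to its own column than the 64.5% of strong fat body values did to the 10.3% over all fat body values. The difference between the columns was not tested. A value above 16 thus also stood in the salivary gland column, for 1 probe without a fat body value. Besides the members, 6004 probes had no value in either column, and nothing is known of them here.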
